A study of Mus musculus with 3 samples.

Results

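Spin1 encodes spindlin 1, a chromatin reader with 3 Tudor-like repeats that binds histone H3 trimethylated at lysine 4. It was first described as a protein of the meiotic spindle of the mouse egg, and its messenger RNA is known as one of the abundant transcripts that the oocyte stores for the embryo. A messenger RNA of this kind is read by the embryo before and while its own genome is switched on, and the 3′ untranslated region of such a transcript is where its poly(A) tail, stability and translation are regulated. Oocytes were not analysed here, so the maternal origin of the RNA was not measured.

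The gene was examined as 1 region, bases 51196000 to 51248500 of chromosome 13 in mm9 (52501 bases), which overlaps 6 of the 272592 nuclear windows of 10 kb. It was chosen by coverage: the window from 51240001 to 51250000, which holds its 3′ end, ranked 10 among all nuclear windows by alignments per 1000000 nuclear alignments. That window held 2032, 4103 and 2408 per 1000000 in litters 1 to 3, a mean of 2848 ± 1103 (SD, n = 3). The window ranked 9, on chromosome 9, had a mean of 3498, and the window ranked 11, at 8.23 Mb on chromosome 11, had 2224. The level of Spin1 is therefore a description, with no test.

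The libraries came from 3 litters of embryos at the 2-cell stage, embryonic day 1.5, in 1 group. The mothers, of a mixed strain background with C57/Bl6J, were LSD1 FL/FL, homozygous for a floxed allele of a histone demethylase gene, and ZP3::Cre negative, so they lacked the Cre recombinase that this transgene expresses in growing oocytes. The labels name the fathers both as wild type CB6 males and as C57/Bl6J mice. Each library is labelled as a litter, and RNA was amplified before sequencing. Coverage, which counts the reads lying over a base, resolved into ungapped alignments of 72 bases, of which 34014013, 32431630 and 40474940 lay on nuclear sequence in litters 1 to 3. The labelled stage was not checked against marker genes, because an annotation of mm9 was not used here.

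Spin1 coverage fell into 4 blocks, runs of at least 72 bases with a coverage of at least 50 in every litter. Block 1 spanned 51234722 to 51234979 (258 bases), block 2 spanned 51239670 to 51239909 (240 bases), block 3 spanned 51244328 to 51245697 (1370 bases) and block 4 spanned 51245885 to 51247885 (2001 bases). These blocks are 3869 bases long in all and held 99.2% ± 0.204 of the alignments that start in the interval (SD, n = 3). The share was 99.0%, 99.4% and 99.3% in litters 1 to 3, so nearly all Spin1 alignments lay in a small part of the gene in each litter.

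The blocks were compared with the coding transcript of Spin1 in GENCODE M21, which is made for another build (GRCm38), by lengths and distances only. That transcript has 6 exons on the forward strand of chromosome 13 and 4434 bases, of which 789 are coding, the stop codon included. Its exons 4, 5 and 6 are 254, 234 and 3585 bases long. Block 1 was 4 bases longer than exon 4 and block 2 was 6 bases longer than exon 5, and their starts lay 4948 bases apart against 4945 in the annotation. From the start of block 2 to the start of block 3 there were 4658 bases, against 4660 from exon 5 to exon 6. Blocks 3 and 4 together, from the first base of one to the last base of the other, span 3558 bases and fill exon 6, apart from a gap of 187 bases in which coverage fell below 50 in at least 1 litter.

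Exon edges were visible because an ungapped read cannot cross from one exon into the next. In exon 4 the outermost positions at which 10 or more alignments began in each of the litters gave a stretch of 262 bases, 8 more than annotated, and in exon 5 a stretch of 245 bases, 11 more than annotated. The sequences of the joined exons at the places that these reads could not cross in the gene are shown here for the boundaries upstream of each block, from the GENCODE M21 transcript, with the downstream exon in capitals.

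Exon 3 to exon 4: gaggacatctcacaaAAAACATCGGACCAG
Exon 4 to exon 5: tccctgatagagttgCAACATCTCGGATCA
Exon 5 to exon 6: tcatgcctgattccaATGATTCGCCTCCAG

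The exons upstream of block 1 carried little or no coverage. Exon 1 is 111 bases long and untranslated, and at its annotated distance of 38477 bases before exon 4 no alignment started in any litter. A count of 0 at this depth allows up to 3 alignments per litter by counting error. Exon 2, 201 bases long and the exon in which translation begins, lies 16269 bases before exon 4. At that place 12, 50 and 1 alignments started in litters 1 to 3, and the highest coverage was 10, 33 and 1, against 2317, 3059 and 3184 in block 1. An island of coverage that overlaps this place, from 51218228 to 51218646, held 20, 50 and 31 alignments. Exon 3 has 49 bases and cannot hold an alignment of 72. Exon 1 offers 40 places for a whole alignment and exon 2 offers 130, against 183 for exon 4. The first exon of the other annotated Spin1 transcript, a processed transcript without a coding sequence, is 64 bases long and likewise cannot hold a whole alignment. No alignment started there, and the highest coverage was 0, 0 and 10 in litters 1 to 3.

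**Figure D1:**
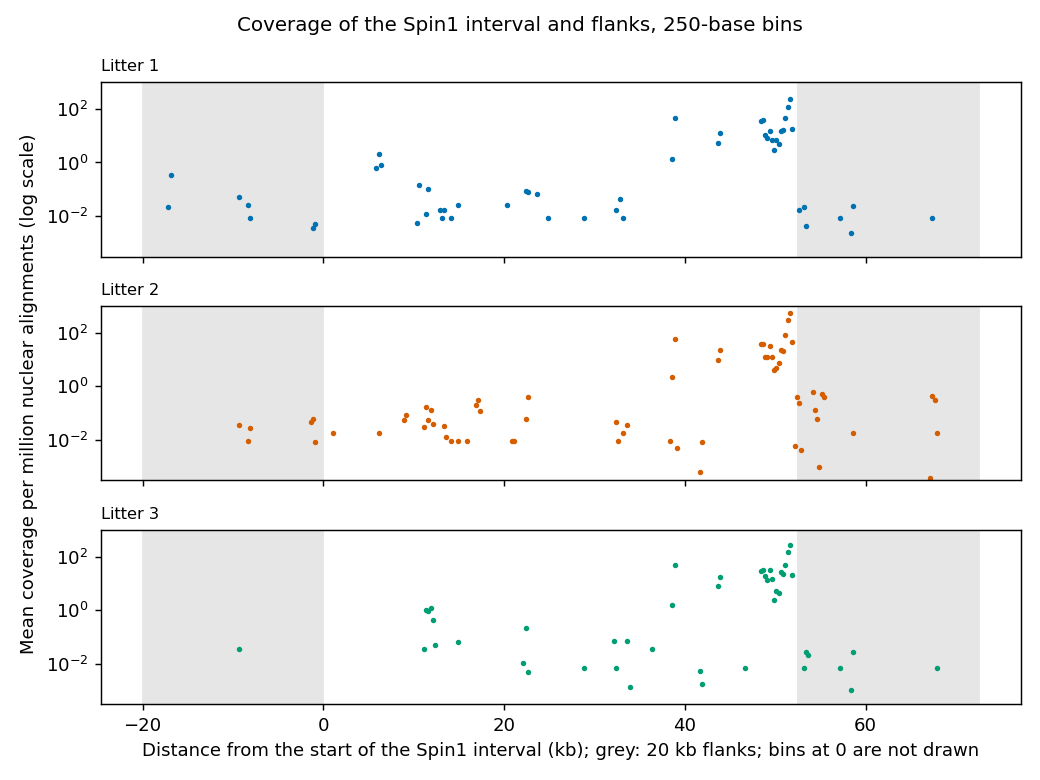
Mean coverage per 1000000 nuclear alignments (log axis) in bins of 250 bases along the Spin1 interval and its 20 kb flanks, by distance from the interval's start, for litters 1 to 3. Coverage rises steeply at the exons 4, 5 and 6 in the right part of the interval in all 3 litters, while the points elsewhere are low and differ between litters.

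The level of Spin1 is given as RPKM, here aligned bases divided by the alignment length, per kb of sequence and per 1000000 nuclear alignments. Over all blocks it was 582, 1143 and 691 RPKM in the litters in order, a mean of 805 ± 298 (SD, n = 3). Litter 2 was the highest and litters 1 and 3 lay close together. This value includes 1429 bases at the 3′ end that are nearly repeated on chromosome 11, described further on. Except where that match breaks, their alignments cannot be assigned to Spin1 alone. Without them the mean was 319 ± 45.4 RPKM. Parts of the sequence left have partial repeats on chromosomes 3 and 9, also described further on, so this value cannot be assigned to Spin1 alone either. When each start position was counted a single time the mean was 87.2. That value is per kb and per 1000000 nuclear start positions in use, and not per 1000000 alignments, so it is on another scale. In the blocks 3458, 3527 and 3521 of the 3869 positions were then in use.

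Exon 4 and exon 5, which hold most of the coding sequence, differed in density. Block 1 (exon 4) had 615, 848 and 704 RPKM in litters 1 to 3, a mean of 722 ± 118. Block 2 (exon 5) had 269, 473 and 357, a mean of 367 ± 102. Block 1 exceeded block 2 by 2.28, 1.79 and 1.97 fold in the 3 litters, so the order was the same in each. The ends of these short exons receive few whole alignments, which lowers both values.

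Block 3, which holds the last 200 coding bases including the stop codon and the first part of the 3′ untranslated region, had 289, 373 and 355 RPKM, a mean of 339 ± 44.5. Block 4, which lies wholly in the 3′ untranslated region, had 816, 1789 and 959, a mean of 1188 ± 526. Block 4 exceeded block 3 by 2.83, 4.80 and 2.70 fold. It exceeded blocks 1 and 2 together by 1.82, 2.68 and 1.79 fold. The 4 blocks took 6.18% ± 1.13, 2.82% ± 0.324, 15.6% ± 3.62 and 74.6% ± 5.18 of the interval's alignments, in order along the gene. Block 4 as a whole was the densest block in every litter, and litter 2 gave it the largest share, at 80.6% against 71.9% and 71.3%. This order turned without the stretch repeated on chromosome 11. The other 573 bases of block 4 had 78.6, 72.2 and 61.4 RPKM, a mean of 70.7 ± 8.66, and were at 0.272, 0.194 and 0.173 times the density of block 3. They lay below blocks 1, 2 and 3 in every litter, and held 5.59% ± 1.09 of the alignments outside the stretch. The log2 ratio of block 4 to the other blocks together was 1.30, 1.99 and 1.25, with a pseudocount of 0.1 RPKM. Its mean was 1.51, and it was 0.07 with each start position counted a single time and -2.48 without the repeated stretch.

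**Figure D2:**
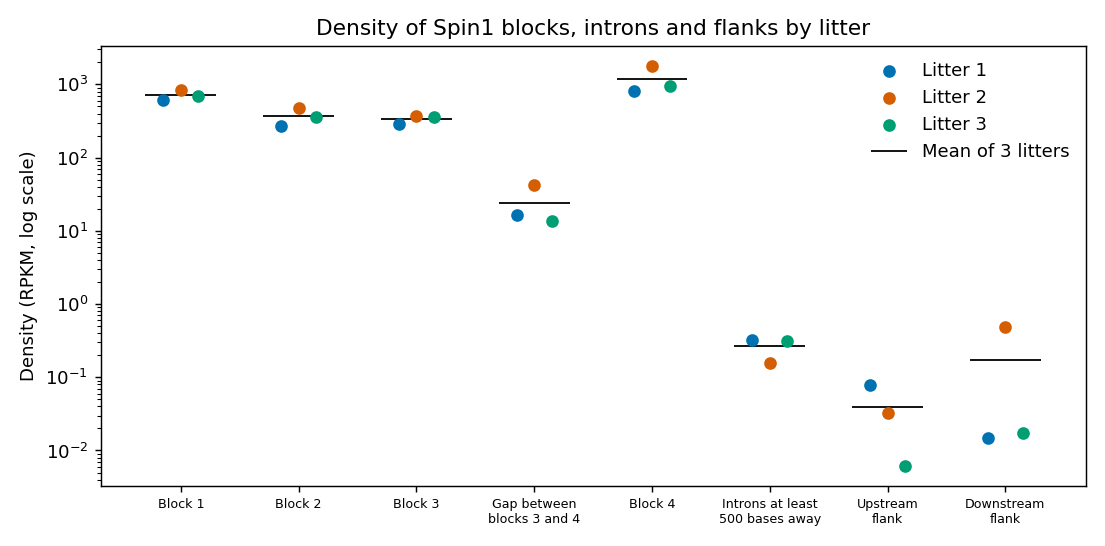
Density in RPKM (log axis) of the 4 Spin1 blocks, the gap between blocks 3 and 4, the introns at least 500 bases from a block and each 20 kb flank, with 1 point per litter and a line at the mean of 3 litters. The blocks lie between 269 and 1789 RPKM, and every intron and flank value lies below 1 RPKM.

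Along the last exon, coverage rose and fell in the same places in all litters. In bins of 100 bases counted from the start of block 3, log2 coverage over the 36 bins gave a Pearson correlation of 0.962 between litter 1 and either other litter and of 0.954 between the other two. The bins of a litter share a library, and these correlations are descriptions. Coverage per 1000000 nuclear alignments was 59.1, 65.6 and 53.4 in bases 101 to 200, the coding end of the exon. It fell to 6.58, 10.9 and 13.3 in bases 701 to 800 and rose again to 17.2, 36.6 and 44.5 in bases 1101 to 1200. In this second rise litter 1 was the lowest and litter 3 the highest.

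A trough followed. In bases 1401 to 1500, which lie wholly in the gap between the blocks, coverage was 1.03, 3.31 and 0.948 per 1000000. The gap as a whole had 16.7, 42.9 and 13.5 RPKM, far below the blocks on either side but well above the introns. Alignments started there in every litter, at 120, 284 and 102 in number, so the exon was covered throughout. At a threshold of 20 in place of 50 the exon formed a single block of 3578 bases.

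The highest coverage lay near the 3′ end, inside the stretch repeated on chromosome 11. It reached 10136, 21876 and 13176 reads, at bases 3272, 3270 and 3232 of the exon. Scaled to nuclear alignments, these peaks were 298, 675 and 326 per 1000000. In bases 3201 to 3300 the mean coverage per 1000000 was 282, 642 and 311, and all 100 start positions were used in every litter. Past the peak, coverage last stood at 10% of its height or more at bases 3474, 3479 and 3479. Coverage without interruption ended at base 3592 in litter 1, 3691 in litter 2 and 3593 in litter 3, against an annotated exon length of 3585. The end of the covered stretch thus lay within 10 bases of the annotated end in litters 1 and 3. In litter 2 low coverage ran on for about 100 bases more. Few alignments lay this far out: 29, 77 and 26 started in bases 3501 to 3600 in litters 1 to 3. By the outermost positions at which 10 or more alignments began in each litter, the exon spanned 3535 bases, against the annotated 3585. In the other annotated transcript, the distance from the start of this exon to the transcript's end is 3533 bases. Which annotated end the RNA used was not tested. With the coding bases counted from the start of block 3, block 4 ended 3358 bases after the stop codon, and the annotated 3′ untranslated region after the stop codon is 3385 bases long.

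**Figure D3:**
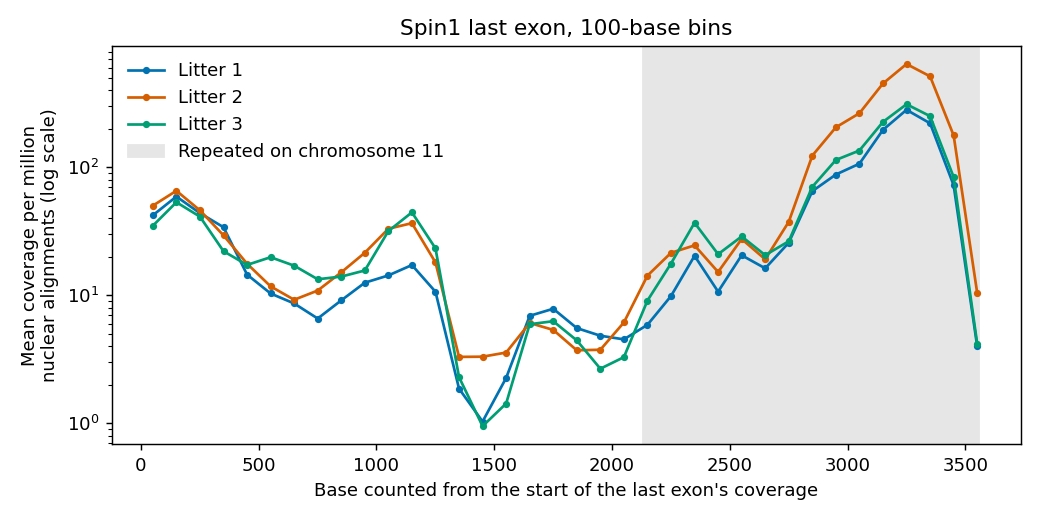
Mean coverage per 1000000 nuclear alignments (log axis) in bins of 100 bases along the last exon of Spin1, by base counted from the start of block 3, with 1 line per litter. The 3 lines share a maximum in bases 3201 to 3300 and a trough in bases 1401 to 1500, and litter 2 lies above the others at the 3′ end.

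The poly(A) signal AATAAA, the hexamer that directs cleavage of the messenger RNA a short way downstream, was searched on both strands of exon 6 in the GENCODE M21 transcript. The sense strand held 2 matches and the other strand held 3. The sense matches are shown because they lie beside the second rise and the 3′ end; the hexamer is in capitals, signal 1 begins at base 1091 of the exon and signal 2 at base 3568.

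Signal 1: ttcacatggaatAATAAAgatgtgttttta
Signal 2: ttaaaacattaaAATAAAccctttatgtgc

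Signal 2 ends 12 bases before the annotated end of the exon, where coverage ended in litters 1 and 3. Signal 1 lies 2489 bases before the annotated end, inside the second rise. After it coverage stayed high in bases 1101 to 1200 and had fallen to 1.86, 3.30 and 2.29 per 1000000 in bases 1301 to 1400. The hexamer stands in the last 30 bases of 35.5% of 58793 protein-coding transcripts in GENCODE M21, and 2.91% have it there on the other strand. At least 2 sense matches occur in the last 3585 bases of 59.5% of the 12588 protein-coding transcripts that are long enough, so a pair of matches is common. A match is a description of the letters and not a measured site.

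The 3′ end of Spin1 has a near copy on another chromosome. Of 390 start positions in the interval that held 50 alignments or more in each litter, 109 (27.9%, exact 95% binomial interval 23.5% to 32.7%) had the same 3 litter counts at a place elsewhere on nuclear sequence. Of these, 106 had their match in bases 8238117 to 8239581 of chromosome 11. Start positions of the same gene are not independent trials, so the binomial interval does not measure the uncertainty of this share. Over all nuclear sequence 38.8% of 22256 positions with 50 alignments or more in each litter had counts found elsewhere. At a minimum of 20 alignments the share was 35.98% in Spin1 and 63.7% over all nuclear sequence. At that minimum only 192 of the 335 recurring Spin1 positions had their match in the chromosome 11 place. At a minimum of 100 the shares were 29.5% and 24.7%. They are not ranked here, because the nuclear share may also include matches within the same gene. The place on chromosome 11 repeats the end of Spin1 in reverse orientation. It lies in the window ranked 11, just below that of Spin1, with 1512, 3374 and 1787 alignments per 1000000 in that window.

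The repeat covers bases 51246458 to 51247886 of chromosome 13, a stretch of 1429 bases at the end of block 4. In this stretch 69.8%, 79.5% and 69.9% of the interval's alignments started. Downstream of base 51247207 the chromosome 11 place held 98.0% as many alignments as Spin1 in every litter, over 608 start positions, with equal counts in all 3 litters at 187 of them. Upstream of base 51247170 it held 98.0%, 97.0% and 96.3% as many, over 712 positions with equal counts at 359. Both places thus held nearly the same number of alignments at matching positions. How the aligner treated reads that fit several places is not stated in the sources, and its part in these counts was not tested.

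At 1 point the offset between the 2 places shifted by 36 bases, the place on chromosome 11 being the longer. Across it, 74 neighbouring start positions on chromosome 11 (8238725 to 8238798) held 1, 2 and 0 alignments in litters 1 to 3. The matching part of Spin1 (51247170 to 51247207) held 1550, 3067 and 2225 alignments, with all 38 start positions used in every litter. Alignments across this point were thus found at Spin1 and hardly at all on chromosome 11. Around base 2411 of the exon the places also differed: 20 start positions there held 11, 46 and 57 alignments at Spin1 and 5, 5 and 8 on chromosome 11. At positions with equal counts in every litter, coverage alone does not say from which place the reads came.

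**Figure D4:**
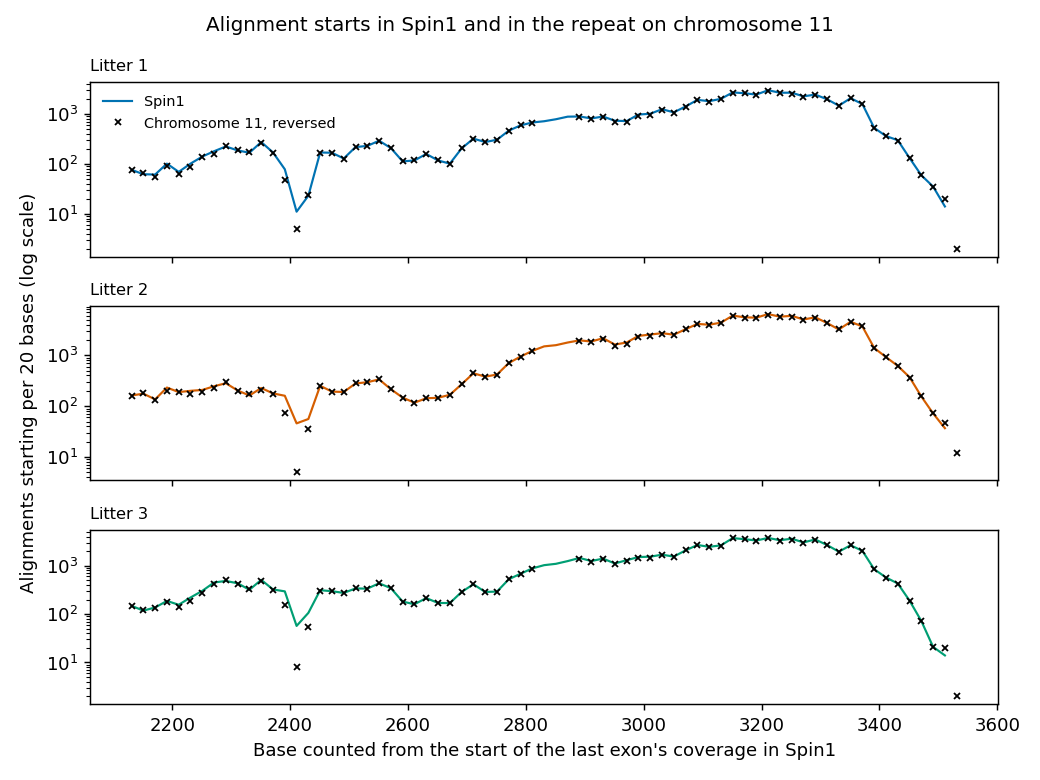
Alignments starting per 20 bases (log axis) in the repeated stretch of Spin1 (lines) and at the matching positions of the chromosome 11 place read in reverse (crosses), by base of the last exon, for litters 1 to 3. The crosses lie on the lines along most of the stretch and below them in a dip in the left part; no cross is drawn over the break, and bins at 0 are left out.

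The coding blocks of Spin1 also had partial repeats. On chromosome 9, bases 67595202 to 67596568, in reverse orientation, held 9908, 11596 and 13271 alignments in litters 1 to 3. On chromosome 3, bases 22424321 to 22425762, in the same orientation, held 11190, 13217 and 13208. Over the first 600 start positions of exon 6, the chromosome 9 place was used, by at least 2 alignments over all litters, at 462 and the chromosome 3 place at 355. Pearson correlations across used positions of log2(1 + alignments), summed over litters, with Spin1 were 0.846 and 0.895, and no other offset within 40 bases exceeded 0.540 and 0.561. Counts within 10% of those of Spin1 in every litter stood at 259 and 103 of the 600 positions. These correlations are descriptions, since the positions share their libraries.

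In both repeats the matches to exons 5 and 6 adjoined without the intron. On chromosome 3 the best offset for exon 5 differed from that of exon 6 by 4426 bases, the annotated length of this intron. Only offsets within 40 bases of that expected without the intron were searched, so a value near 4426 was set in advance. There 55 of 163 exon 5 positions were used, with a correlation of 0.760 against 0.391 at the next best offset. On chromosome 9 the difference was 4422 bases, at an offset also found from 3 start positions with shared counts, without that limit. Reads that cross the joined ends of exons 5 and 6, which the gene itself cannot hold, did align on chromosome 3: the 71 start positions that cross the boundary held 1401, 1844 and 1485 alignments, with all 71 used in every litter. On chromosome 9 only 10 of 71 positions were used, by 249, 279 and 227 alignments. The first 71 start positions of exon 6 in Spin1 held 2051, 2318 and 2036. Whether the crossing reads came from spliced Spin1 messenger RNA or from the repeat was not tested.

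Litter 2 had more Spin1 coverage than the other litters, and the excess lay mainly at the 3′ end. Over all blocks its density was 1.80 times the mean of litters 1 and 3, and in the 10 kb window of the 3′ end it was 1.85 times. Among 286 nuclear windows of 10 kb with a mean of at least 10000 alignments, 24 (8.39%) had litter 2 at 1.5 times or more, and the median ratio was 0.951. Because each litter is a single library, no test of this difference was made. The values are shares of a library, and the part of amplification in the ratio was not tested. In bulk RNA, fewer cells of a type and less RNA per cell cannot be told apart. On the log2 scale the ratio was 0.85, and it was 0.50 when libraries were scaled by the median of ratios over windows. With each start position counted a single time it was -0.17, scaled to the nuclear start positions in use. Of these litter 2 had the most, at 11366964 against 9460348 in litter 1 and 10508870 in litter 3. Unscaled, the blocks used 3458, 3527 and 3521 positions in litters 1 to 3, so litters used nearly the same number at this depth.

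The ratio of litter 2 was smaller in the part of the gene that is not repeated on chromosome 11. There the density was 272, 362 and 323 RPKM in litters 1 to 3, a mean of 319 ± 45.4, and litter 2 stood at 1.22 times the mean of the others. In the repeated stretch it was 1111, 2477 and 1318 RPKM, a mean of 1635 ± 736, with litter 2 at 2.04 times. Within the stretch, the 38 start positions at the break, whose match on chromosome 11 was hardly used, held 1550, 3067 and 2225 alignments at Spin1. Litter 2 was thus the highest there also, and it stood at 1.82 times in bases 2801 to 2900, which contain the break. By block the ratio of litter 2 was 1.29 in block 1, 1.51 in block 2, 1.16 in block 3 and 2.02 in block 4. The coefficient of variation between litters was 14.2% without the repeated stretch, against a median of 18.9% in the 286 windows, and 45.0% in the stretch.

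The ratio of litter 2 varied along the exon and within the repeated stretch. Of the 36 bins of the last exon, litter 2 was highest in 22, litter 3 in 9 and litter 1 in 5. The ratio of litter 2 ran from 0.719 in bases 601 to 700 to 3.35 in bases 1401 to 1500, the trough, where mean coverage over litters was lowest. Inside the repeated stretch it was 0.858 in bases 2301 to 2400 and 1.04 in bases 2601 to 2700, and it lay between 1.82 and 2.55 in every bin from base 2801 to the end.

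**Figure D5:**
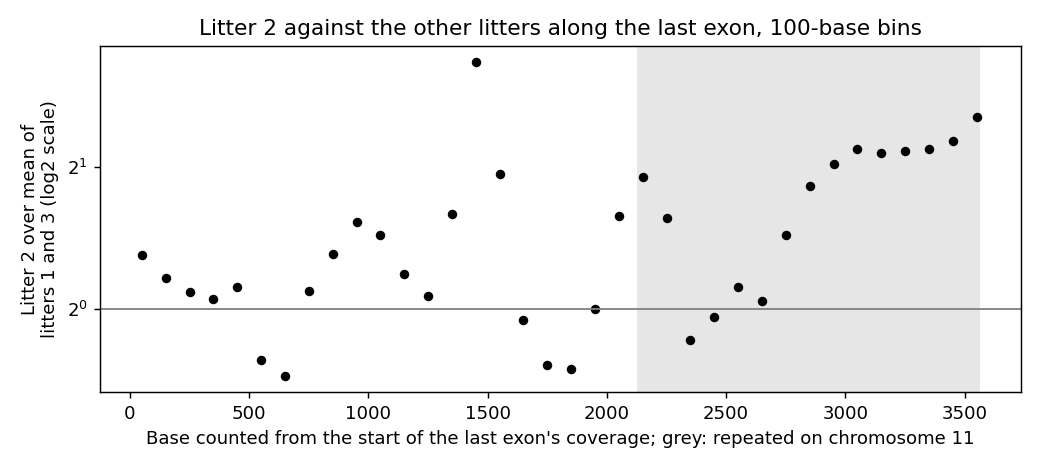
Ratio of litter 2 to the mean of litters 1 and 3 (log2 axis) in coverage per 1000000 nuclear alignments, in bins of 100 bases along the last exon, with the stretch repeated on chromosome 11 in grey. Points range from 0.719 to 3.35 over the exon and stay between 1.82 and 2.55 from base 2801 on.

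Introns and flanks were nearly empty. The introns, taken as all bases outside the blocks, had 0.379, 0.384 and 0.355 RPKM, a mean of 0.372 ± 0.0156. They include the gap in exon 6, the margins of blocks, the places of exons 1 to 3 and the ends of the interval outside the transcript. At least 500 bases from any block the values were 0.325, 0.159 and 0.315. Those bases held 502, 231 and 579 alignments over 45445 bases, of which 12, 50 and 1 started at the place of exon 2. The upstream flank of 20 kb had 0.0779, 0.0324 and 0.00618 RPKM from 53, 21 and 5 alignments, and the downstream flank had 0.0147, 0.481 and 0.0173 from 10, 305 and 14. A count of 3 alignments over both flanks equals 0.00220, 0.00231 and 0.00185 RPKM. Blocks exceeded these introns by 1792, 7202 and 2195 fold. Blocks 1 to 3, of which none lies in the stretch repeated on chromosome 11, exceeded them by 1020, 2843 and 1282 fold. Parts of these blocks have partial repeats on chromosomes 3 and 9, so their alignments cannot all be assigned to Spin1 alone.

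Introns as a whole were denser than the flanks in all 3 litters, by 8.18, 1.496 and 30.2 fold, but the size differed widely. The log2 ratio (pseudocount 0.1 RPKM) had a mean of 1.39, and flipping its signs in an exact permutation test, two-sided, gave p = 0.25, the smallest p that 3 litters allow. The size depended on the pseudocount: the mean was 2.84 with a pseudocount of 0 and 0.32 with a pseudocount of 1. At least 500 bases from a block the ratio was 7.01, 0.619 and 26.8, with p = 0.5 in the same exact permutation test. A single island held 421 of the 502 alignments of these introns in litter 1, and another held 499 of 579 in litter 3. In litter 2 the flanks together were denser than these introns, and its downstream flank (0.481 RPKM) was denser than its upstream flank (0.0324 RPKM).

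The intron signal lay in separate islands that seldom recurred between litters. Outside the blocks, 17 islands in the interval reached a coverage of 3 in some litter, of which 12 did so in 1 litter, 3 in 2 litters and 2 in all 3. The largest in litter 1, from 51201807 to 51202471, held 421 alignments there, 2 in litter 2 and 0 in litter 3. The largest in litter 3, from 51207324 to 51208314, held 499 alignments there, 12 in litter 1 and 42 in litter 2, and reached the limit in all litters. The other island in all 3 litters was that which overlaps the place of exon 2. In litter 3 the highest coverage at that place was 1, so the island reached the limit there only outside exon 2. Apart from these 2, no island in the introns reached the limit in every litter. Those at 51210869 and 51228419 did hold alignments in each, at 1, 1 and 9 and at 2, 3 and 1 in litters 1 to 3.

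In the flanks 9 islands reached the same coverage, 4 upstream and 5 downstream. One upstream island, from 51186604 to 51186694, did so in all 3 litters, with 4, 4 and 5 alignments. All 5 downstream islands did so in litter 2 only; the first of them continues an island of litter 2 that begins at 51248255, inside the interval and past the covered end of the exon, and the longest of the 5, from 51263285 to 51263736, held 83 alignments in litter 2 and 1 and 0 in litters 1 and 3. In RefSeq's gene table for GRCm38.p6 the gene listed after Spin1 is Nxnl2, a thioredoxin-like gene, and the gene listed before it is the long non-coding RNA 9430083A17Rik. Their positions in mm9 were not used, so no island is assigned to them.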

How the data were processed

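RNA of 3 litters of 2-cell embryos was measured, 1 library per litter, so p-values cover only the spread between litters. A Nugen Ovation kit amplified the RNA, per the labels' protocols, and the cDNA was fragmented on a Covaris instrument and made into Illumina libraries. The submitters' processing notes name Bowtie and mm9, and the sources used here give neither its version nor its settings. The authors deposited coverage (signal) as unscaled whole numbers per base, and per the file headers each track derives from a sorted bam. Coverage was resolved into alignments of 72 bases without a negative start in any litter. Strand is unknown. This step, the blocks and the window ratios were tested on simulated data.

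Blocks are runs of coverage of at least 50 in every litter, with gaps of up to 20 bases joined, and at least 72 bases long. Densities were scaled to nuclear alignments or, where each start position was counted a single time, to the nuclear start positions in use. GENCODE M21 is made for GRCm38 and no coordinate was converted: lengths and distances were compared, on the assumption that they did not change between builds. Repeats were found as 3 or more start positions that shared their 3 litter counts with Spin1, at least 20 each, at 1 offset. Spin1, its interval and the lists were chosen with earlier results of these data known. By rule, Spin1, its blocks and its neighbours in a reference table are named. The related genes and the stage, oocyte, cumulus and sperm markers, listed for use with an mm9 annotation, were not analysed here. Islands, repeats, bins, joining gaps of up to 200 bases and leaving out the repeated stretch were chosen after seeing the data. Other alternatives were coverage thresholds, gap joining, scaling, distinct start positions, pseudocounts, flank choice and leaving out each litter. Intervals and limits cover counting error only, because amplified copies were not marked and are not independent. Computation used matplotlib 3.10.9, numba 0.67.0, numpy 2.4.6, pandas 2.3.3, Python 3.11.15 and scipy 1.17.1.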

Additional observations from a re-analysis of the deposited data

How the results depend on the processing

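Of 76 alternative values for 9 results, 62 kept their direction and their side of the threshold or lay within the spread, 12 moved and 2 reversed. Counting as kept was a wide criterion, since counts, lengths, densities and shares have no direction to lose. Block numbers of 3 and 5 against 4 counted as kept. So did a last block of 1379 bases against 2001 and a log2 ratio of the last block of 0.07 against 1.51. Counting each start position a single time gave a block density of 87.2 RPKM, a share of 46.9% of alignments in the last block and a log2 ratio of litter 2 of -0.17, which is reversed; nearly all positions are in use at this depth, which limits what such counts can show. A coverage threshold of 20 joined blocks 3 and 4, which gave a last block of 3578 bases with 90.4% of the interval's alignments, and joining gaps of up to 200 bases gave 3558 bases and 90.4%. At 10% of the block maximum the last block was 665 bases long. Scaling by the median of ratios gave a log2 ratio of litter 2 of 0.50. Without the stretch repeated on chromosome 11 that ratio was 0.28, the density was 319 RPKM, the share in the last block was 5.59% of the alignments left, and the log2 ratio of the last block to the other blocks was -2.48, which is reversed. The log2 ratio of intron to flank density, 1.39 as reported, was 2.84 with a pseudocount of 0 and 0.32 with a pseudocount of 1. Counts of at least 20 alignments per start position gave a recurring share of 35.98%. Leaving out each litter gave 3869 to 3925 bases of blocks and a density of 636 to 917 RPKM, lowest without litter 2, and the log2 ratio of intron to flank density ran from 1.08 to 1.87. The log2 ratio of the last block to the other blocks ran from 1.27 to 1.64, and the share in the last block from 71.6% to 76.2%. The log2 ratio of the last block to the other blocks, 1.51 as reported, was 0.07 with single start positions, 0.50 at a threshold of 20 and 0.49 with gaps of up to 200 bases joined. No paired analysis was possible because there is 1 group.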
